A study of Mus musculus with 9 samples.

Results

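Messenger RNA of 9 genes that make superoxide, hydrogen peroxide or nitric oxide was followed in the colon of wild-type mice. The 9 genes are Nox1, Noxo1, Noxa1, Cyba, Cybb, Nox4, Duox2, Duoxa2 and Nos2, out of 22262 genes with a count in any mouse, and all 9 were found by symbol through their Ensembl identifiers. They were chosen by function with their values in the comparison of the 2 environments already known, so that comparison is given for them as a description without a test. Their relation to Slc10a2 and Hoxb13, 2 genes used here as marks of position along the colon, was read within each environment and does not use that comparison.

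The mice were female C57BL/6N animals aged 12 months, with no transgene. WT_SE mice (1, 2, 3 and 5) lived in the standard environment, in standard cages of a few animals with normal chow and tap water. WT_EE mice (1 to 5) lived from weaning in the enriched environment, a larger cage shared by 8 females, with extra nesting material, changing objects, tunnels and running wheels. The labels do not tie mice to cages, so a cage effect and an effect of the environment cannot be told apart, and mice that shared a cage are counted as separate samples. The tissue is labelled as a piece from the upper colon. It is whole wall, so in every result fewer cells of a type and less RNA per cell cannot be told apart.

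Each count stands for 1 molecule read near the 3′ end of a messenger RNA, and counts therefore do not grow with transcript length. Levels of different genes are set side by side with a limit, because counts of abundant genes grew less than library size, as given below for Duox2. Library totals lay between 295535 and 454043 counts. Values are given as counts and as CPM, the usual depth-corrected unit, scaled by edgeR's TMM factors, and a floor of 3 counts was set for a detectable level, which covers counting error only. Among the 17441 genes tested between the environments, 7.65% had an unadjusted p-value under 0.05 and 0.0401% an adjusted one by the quasi-likelihood F test of edgeR, adjusted by the Benjamini-Hochberg procedure. The libraries of WT_SE mice 1 and 3 carry another name ending than the other 7, and no WT_EE library carries it.

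NADPH oxidases pass electrons from NADPH across a membrane to oxygen. In the colon epithelium NOX1 works with the p22phox subunit (gene Cyba), the organizer NOXO1 and the activator NOXA1. The phagocyte enzyme has gp91phox (gene Cybb) as its catalytic subunit and also needs p22phox. DUOX2 releases hydrogen peroxide at the apical face of the epithelium and needs the maturation factor DUOXA2 to leave the endoplasmic reticulum. Inducible nitric oxide synthase (gene Nos2) makes nitric oxide from arginine and is switched on by bacterial products and cytokines in epithelium and macrophages. Slc10a2 encodes the sodium-dependent bile acid transporter, and Hoxb13 is a posterior homeobox gene of the distal gut.

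Start regions of Nox1 and Duoxa2 are shown because these are the 2 epithelial oxidase genes whose levels differed most between the environments. Each is the 250 bases before the RefSeq start on GRCm38.p6, written 5′ to 3′ on the strand of the gene. Capitals mark every match to a TATA box (TATAAA), an AP-1 motif (TGANTCA), a STAT motif (TTCNNNGAA), a HOX13 and CDX core (AATAAA), and the NF-kB motif, searched on both strands.
Nox1, chrX:134111855-134112104, minus strand: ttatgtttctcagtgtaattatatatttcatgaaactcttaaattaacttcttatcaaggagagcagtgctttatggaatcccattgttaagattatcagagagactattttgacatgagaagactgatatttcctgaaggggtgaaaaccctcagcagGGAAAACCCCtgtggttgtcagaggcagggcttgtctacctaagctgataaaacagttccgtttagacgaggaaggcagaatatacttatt
Duoxa2, chr2:122298650-122298899, plus strand: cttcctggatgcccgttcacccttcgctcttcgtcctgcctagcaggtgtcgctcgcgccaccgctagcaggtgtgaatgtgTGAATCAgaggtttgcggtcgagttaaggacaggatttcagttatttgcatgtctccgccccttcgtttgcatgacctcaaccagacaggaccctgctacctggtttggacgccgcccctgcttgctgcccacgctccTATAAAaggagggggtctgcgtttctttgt

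The Duoxa2 window has a TATA box from -30 to -25 and an AP-1 match from -168 to -162, counted back from the start. This stretch lies between Duox2 and Duoxa2, which are transcribed away from each other. The Nox1 window has no TATA box, and its 1 match is to the NF-kB motif, on the other strand, from -91 to -82. Neither window holds the longer HOXB13 motif CCAATAAA. Of 32851 RefSeq windows of this length, 12.4% hold TATAAA, 6.75% TGANTCA, 7.25% the NF-kB motif, 7.02% TTCNNNGAA, 18.1% AATAAA and 1.02% CCAATAAA. No annotated exon of GENCODE release M21 overlaps either window. The Nox1 window lies inside the annotated Nox1 gene, chrX:134086421-134221956, so the RefSeq start used here is not the 5′ end of that annotation. The matches are descriptions of the letters only.

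Nox1 (ENSMUSG00000031257, chrX:134086421-134221956, minus strand, GRCm38) is the catalytic subunit of the epithelial oxidase. It had 4, 3, 2 and 13 counts in WT_SE mice 1, 2, 3 and 5, and 11, 26, 20, 24 and 26 counts in WT_EE mice 1 to 5. WT_SE mouse 5 stood above the 3 other WT_SE mice, of which mice 2 and 3 were at or under the floor of 3 counts. WT_EE mouse 1 was the lowest of its group. Scaled for depth, these values were 15.3 ± 13.6 CPM (SD, n = 4) among WT_SE mice and 58.5 ± 26.02 CPM (SD, n = 5) among WT_EE mice, a ratio of 3.83. The groups overlapped, because WT_SE mouse 5 at 35.5 CPM lay above WT_EE mouse 1 at 23.7 CPM. The fitted log2 fold change was 1.82 (± 0.40 SE), and 2.66 (± 0.46 SE) without WT_SE mouse 5. The annotated Nox1 gene overlaps at its 3′ end with Cstf2 on the other strand, and the sources used here do not state whether counting used strand. Cstf2 itself had 142 ± 27.9 CPM (SD, n = 4) among WT_SE mice and 131 ± 19.5 CPM (SD, n = 5) among WT_EE mice.

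**Figure D1:**
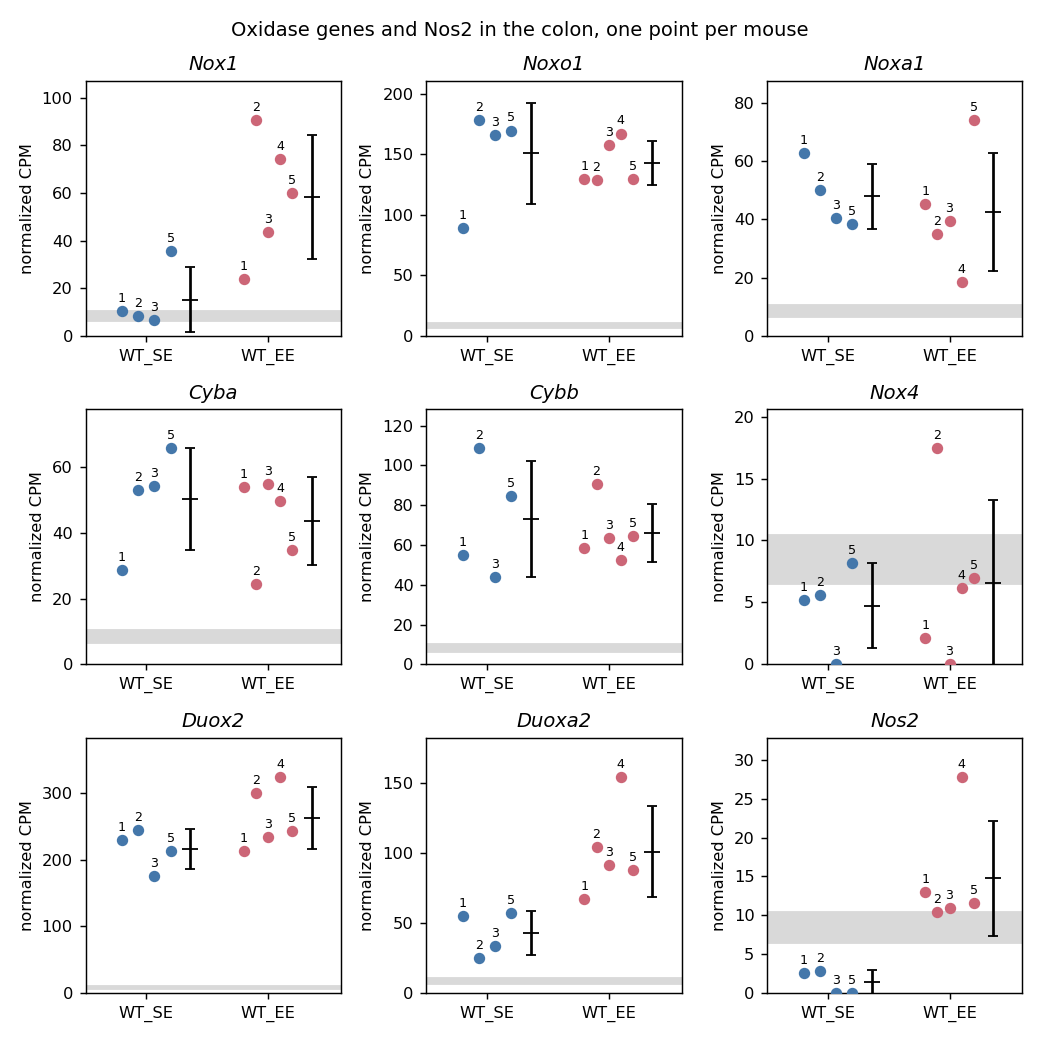
Normalized CPM of the 9 genes in each mouse, WT_SE in blue and WT_EE in red with the mouse number above each point. Black bars are the mean and SD (cut at 0 for Nox4), and the grey band is the level of 3 counts across the libraries. All 5 WT_EE mice lie above all 4 WT_SE mice for Duoxa2 and Nos2, and Nox1 overlaps only through WT_SE mouse 5 and WT_EE mouse 1.

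The partners of NOX1 had overlapping levels in the 2 environments. Noxo1 (ENSMUSG00000019320, chr17:24696234-24700529, plus strand) had 34, 64, 49 and 62 counts in WT_SE and 60, 37, 72, 54 and 56 in WT_EE. Its level was 151 ± 41.5 CPM (SD, n = 4) among WT_SE mice and 142 ± 18.3 CPM (SD, n = 5) among WT_EE mice, a log2 fold change of -0.07 (± 0.17 SE). The lowest Noxo1 value, 88.7 CPM, was that of WT_SE mouse 1. Noxa1 (ENSMUSG00000036805, chr2:25085667-25095149, minus strand) had 24, 18, 12 and 14 counts in WT_SE and 21, 10, 18, 6 and 32 in WT_EE. The 2 ends of its range, 18.6 and 74.0 CPM, were both WT_EE mice, and its log2 fold change was -0.14 (± 0.29 SE). Noxo1 overlaps Tbl3 and Noxa1 overlaps Entpd8, each on the other strand at the 3′ end, with 48 and 434 counts in all.

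Levels of the organizer exceeded those of the catalytic subunit in every mouse. In WT_SE the mean was 151 CPM for Noxo1 and 15.3 CPM for Nox1, and in WT_EE it was 142 and 58.5 CPM. Noxa1 at 47.9 ± 11.1 CPM (SD, n = 4) was above Nox1 in every WT_SE mouse. In WT_EE, Noxa1 had 42.4 ± 20.3 CPM (SD, n = 5) and was above Nox1 only in mice 1 and 5.

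Cyba (ENSMUSG00000006519, chr8:122424776-122432930, minus strand), the p22phox subunit that both oxidases share, had 11, 19, 16 and 24 counts in WT_SE and 25, 7, 25, 16 and 15 in WT_EE. The groups overlapped, at 50.3 ± 15.5 CPM (SD, n = 4) and 43.4 ± 13.3 CPM (SD, n = 5), with a log2 fold change of -0.17 (± 0.28 SE). Cybb (ENSMUSG00000015340, chrX:9435252-9487771, minus strand), the phagocyte catalytic subunit, had 21, 39, 13 and 31 counts in WT_SE and 27, 26, 29, 17 and 28 in WT_EE. Both the lowest and the highest Cybb level were WT_SE mice, and the log2 fold change was -0.18 (± 0.24 SE). Summed over 12 macrophage markers, all of them with a count, levels were 328 to 504 CPM in WT_SE and 297 to 497 CPM in WT_EE, and none of the 12 had an unadjusted p-value under 0.05 in edgeR's test.

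Nox4 (ENSMUSG00000030562, chr7:87246096-87398710, plus strand), an oxidase mainly of muscle, vessel and connective tissue cells, was close to the limit of detection. It had 2, 2, 0 and 3 counts in WT_SE and 1, 5, 0, 2 and 3 in WT_EE. Since 8 of the 9 mice were at or under 3 counts, no fold is given for it.

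Duox2 (ENSMUSG00000068452, chr2:122279247-122298449, minus strand) was the most abundant of the 9 genes in every mouse. It had 88, 88, 52 and 78 counts in WT_SE and 99, 86, 107, 105 and 105 in WT_EE. Levels were 216 ± 29.7 CPM (SD, n = 4) among WT_SE mice and 263 ± 47.0 CPM (SD, n = 5) among WT_EE mice, a log2 fold change of 0.26 (± 0.15 SE). WT_EE mice 2 and 4 were the highest, and the other 3 WT_EE mice lay within the range of WT_SE. In these libraries the summed counts of genes averaging 80 to 160 counts grew with a slope of 0.551 on library size (both on a log scale), against 1.04 to 1.35 for genes averaging 2 to 80 counts, so the CPM of genes as abundant as Duox2 was lower in larger libraries. What this does to its fold change was not tested.

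Duoxa2 (ENSMUSG00000027225, chr2:122298900-122302885, plus strand), the maturation factor, had 21, 9, 10 and 21 counts in WT_SE and 31, 30, 42, 50 and 38 in WT_EE. Every WT_EE mouse, from 66.9 to 155 CPM, lay above every WT_SE mouse, from 25.1 to 57.4 CPM. Whether it differed between the environments by more than Duox2 was not tested. The means were 42.8 ± 15.8 CPM (SD, n = 4) and 101 ± 32.8 CPM (SD, n = 5), a ratio of 2.37 and a log2 fold change of 1.19 (± 0.26 SE). Duoxa2 overlaps Duoxa1 on the other strand, which had 0 counts.

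Nos2 (ENSMUSG00000020826, chr11:78920787-78960254, plus strand) had 1, 1, 0 and 0 counts in WT_SE and 6, 3, 5, 9 and 5 in WT_EE. All WT_SE mice were under 3 counts and WT_EE mouse 2 was at 3, so the gene was at or under the floor in 5 of the 9 mice. Every WT_EE mouse, from 10.5 to 27.8 CPM, was above every WT_SE mouse, from 0 to 2.78 CPM. Against 3 counts in each WT_SE library, the WT_EE mean of 14.7 ± 7.37 CPM (SD, n = 5) was at least 1.71-fold higher. The fitted log2 fold change of 3.07 (± 0.78 SE) rests on these few counts and is not a bound.

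Of the 9 genes, 3 (Nox1, Duoxa2 and Nos2) had an unadjusted p-value under 0.05 and 0 had an adjusted p-value under 0.05 in edgeR's test, beside the 7.65% and 0.0401% of all genes given above. The count after adjustment was 3 with no filter on low counts (Nox1, Duoxa2 and Nos2), and 2 (Nox1 and Duoxa2) without WT_SE mouse 5, without WT_EE mouse 1 or without WT_EE mouse 3. Groups did not overlap for 2 of the 9 genes, Duoxa2 and Nos2, and every WT_EE mouse was above every WT_SE mouse for 1.38% of all genes tested. The median log2 fold change of the 9 genes was 0.21 and that of all genes tested 0.01. This 0.21 is the fitted value of Nox4, whose counts lie at the floor, and it is not interpreted. Because the genes were selected on this comparison, nothing is read from these counts.

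In order of mean level, WT_SE had Duox2 and Noxo1, then Cybb at 73.0 ± 29.3 CPM (SD, n = 4), Cyba, Noxa1 and Duoxa2, then Nox1, Nox4 and Nos2. From Cybb to Duoxa2, and from Nox1 to Nos2, each neighbour in that order differed from the next by less than the larger of their SDs. In WT_EE the order was Duox2, Noxo1, Duoxa2, Cybb at 65.9 ± 14.6 CPM (SD, n = 5), Nox1, Cyba, Noxa1, Nos2 and Nox4. Cybb and Nox1 differed there by less than the larger SD, as did Nox1 and Cyba, and Cyba and Noxa1. Duoxa2 and Nox1 were thus 6th and 7th in WT_SE and 3rd and 5th in WT_EE.

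The pieces of colon differed in the position genes although all carry the same label. Slc10a2 had 26, 103, 110 and 16 counts in WT_SE and 107, 3, 117, 4 and 10 in WT_EE. Hoxb13 had 4, 0, 0 and 56 counts in WT_SE and 0, 45, 21, 24 and 20 in WT_EE. Hoxb13 was at 0 in WT_SE mice 2 and 3 and WT_EE mouse 1, which had 103 or more counts of Slc10a2. WT_EE mouse 3 had 117 counts of Slc10a2 and 21 of Hoxb13. WT_SE mice 1 and 5 and WT_EE mice 2, 4 and 5 also had counts of both genes, with 26 or fewer of Slc10a2. Of 8 position genes listed, including further posterior Hox genes, 7 had a count and 6 were tested between the environments, where Hoxa11 was higher in WT_EE (log2 fold change 0.74 ± 0.28 SE) and Hoxd11 lower (log2 fold change -0.97 ± 0.36 SE) at an unadjusted p-value under 0.05 and none after adjustment in edgeR. The mean of Hoxb13 was 40.9 ± 75.0 CPM (SD, n = 4) among WT_SE mice and 64.7 ± 58.0 CPM (SD, n = 5) among WT_EE mice, and that of Slc10a2 was 193 ± 162 CPM (SD, n = 4) and 107 ± 125 CPM (SD, n = 5).

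Within each environment, Nox1 was higher in mice with more Hoxb13 and lower in mice with more Slc10a2. In WT_SE the highest Nox1 value belonged to mouse 5, which had 56 counts of Hoxb13, and in WT_EE the lowest belonged to mouse 1, which had none. WT_SE mice 1, 2 and 3 had 4, 3 and 2 counts of Nox1, at or near the floor of 3. In WT_SE the relation therefore rests on mouse 5 against these mice, and the order among them is not interpreted. Over the 9 mice, with log2 CPM taken as deviations from the mean of the own environment, Nox1 and Hoxb13 had a Pearson's r of 0.97 (exact permutation within environments, two-sided p = 0.000694, adjusted p = 0.0181 over 26 pairs). Spearman's rho was 0.98 (exact permutation p = 0.000694, adjusted p = 0.0181). Without WT_SE mouse 5 and WT_EE mouse 1, the 2 mice whose deviations in Hoxb13 lay farthest from the median deviation, r was 0.81. Over all 9 mice with the environments pooled, r was 0.84.

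Nox1 and Slc10a2 had a Pearson's r of -0.84 (exact permutation p = 0.00139, adjusted p = 0.0181) and a Spearman's rho of -0.83 (exact permutation p = 0.00417, adjusted p = 0.0542). Leaving out WT_EE mice 1 and 3, whose deviations in Slc10a2 lay farthest from the median deviation, gave an r of -0.83. Both relations come from the same 9 mice, in most of which the 2 position genes run opposite to each other, and they are not separate observations. When any 1 mouse was left out, r stayed between 0.95 and 0.99 for Hoxb13 and between -0.90 and -0.78 for Slc10a2. The adjusted p-value of the exact permutation test then ranged from 0.0361 to 0.0903 for Hoxb13, and it was above 0.05 without WT_SE mouse 1 or 5 or WT_EE mouse 2, 4 or 5, with fewer permutations available at 8 mice. For Slc10a2 it ranged from 0.0451 to 0.144 and was under 0.05 only without WT_EE mouse 1 or 3.

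**Figure D2:**
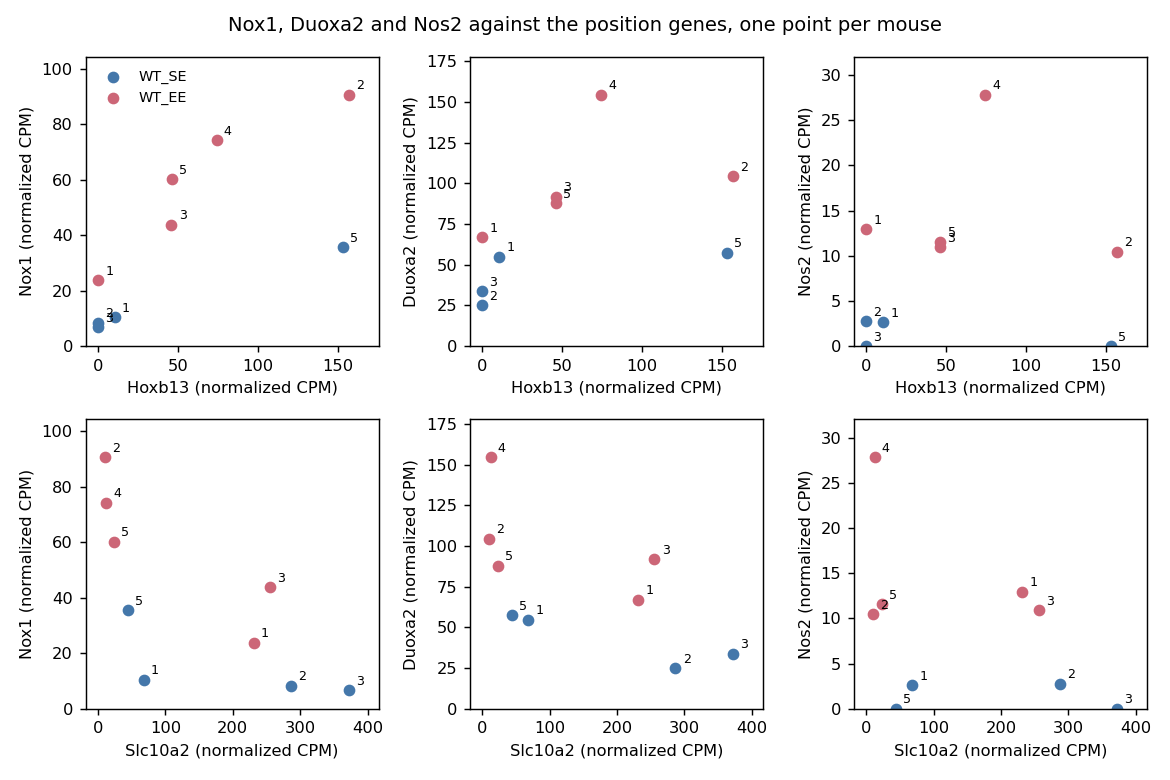
Normalized CPM of Nox1, Duoxa2 and Nos2 (vertical axes) against that of Hoxb13 (upper row) and Slc10a2 (lower row), 1 point per mouse with its number, WT_SE in blue and WT_EE in red. Nox1 is higher with more Hoxb13 in both environments, and at a like Hoxb13 level WT_SE mouse 5 lies below WT_EE mouse 2. For Nos2 the counts, 0 or 1 in WT_SE, are too low to show an order.

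Read in edgeR across all genes, with the environment in the fit, Nox1 had a log2 slope of 0.42 (± 0.09 SE) per log2 unit of Hoxb13. Its adjusted p-value in edgeR was 0.00202 over 17440 genes. Hoxb13 had 0 counts in WT_SE mice 2 and 3 and WT_EE mouse 1, where the prior count of 2 sets its log2 value. The slopes were added after values had been seen. For Slc10a2 the slope was -0.36 (± 0.09 SE), with an adjusted p-value of 0.0245 in edgeR. Nox1 was the 1 member of 9 past the adjusted threshold for each position gene, which 0.745% of all genes passed for Hoxb13 and 1.39% for Slc10a2. Without WT_SE mouse 5 the edgeR adjusted p-value for Hoxb13 was 0.0986 (slope 0.40), and without WT_EE mouse 1 it was 0.0634 (slope 0.46). For Slc10a2, the adjusted p-value of Nox1 in edgeR was 0.0990, 0.359, 0.129 and 0.0649 without WT_SE mouse 5 and WT_EE mice 1, 2 and 4, and 0.0537 with edgeR's own filter on low counts.

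Duoxa2 leaned the same way with less support. Its r was 0.76 with Hoxb13 (exact permutation p = 0.0375, adjusted p = 0.195, rho 0.79) and -0.75 with Slc10a2 (exact permutation p = 0.0365, adjusted p = 0.195, rho -0.68). The edgeR slopes were 0.18 (± 0.06 SE) on Hoxb13 and -0.19 (± 0.07 SE) on Slc10a2, with adjusted p-values of 0.308 and 0.203. At an unadjusted p-value under 0.05, Nox1 and Duoxa2 had a slope on Hoxb13, as did 7.72% of all genes. For Slc10a2 these were Nox1, Duoxa2, Duox2 (slope -0.09, standard error 0.04) and Nox4, where 9.93% of all genes passed.

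The other members showed no relation past the adjusted threshold, apart from Nox4. Nox4 and Slc10a2 had an r of -0.85 (exact permutation p = 0.00243, adjusted p = 0.0211), a rho of -0.77 (exact permutation adjusted p = 0.205) and an r of -0.66 without WT_EE mice 1 and 3. With 8 of 9 mice at or under 3 counts of Nox4, this relation is not interpreted. Duox2 had an r of -0.68 with Slc10a2 (exact permutation adjusted p = 0.300) and 0.47 with Hoxb13 (exact permutation adjusted p = 0.480). For Noxo1, Noxa1, Cyba and Cybb, r lay between -0.29 and 0.51 with both position genes, and single mice moved it. Without WT_SE mouse 5, Cyba had an r of 0.77 with Slc10a2 and -0.67 with Hoxb13, and without WT_SE mouse 2 Cybb had an r of 0.76 with Hoxb13, with adjusted p-values of 0.195, 0.235 and 0.223 in the exact permutation test. Without WT_SE mouse 5 and WT_EE mouse 1, the r with Hoxb13 was -0.84 for Cyba and -0.72 for Noxo1. Nos2 had an r of -0.13 with Hoxb13 and -0.24 with Slc10a2, and with 5 of 9 mice at or under 3 counts an order was not detectable at this depth.

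**Figure D3:**
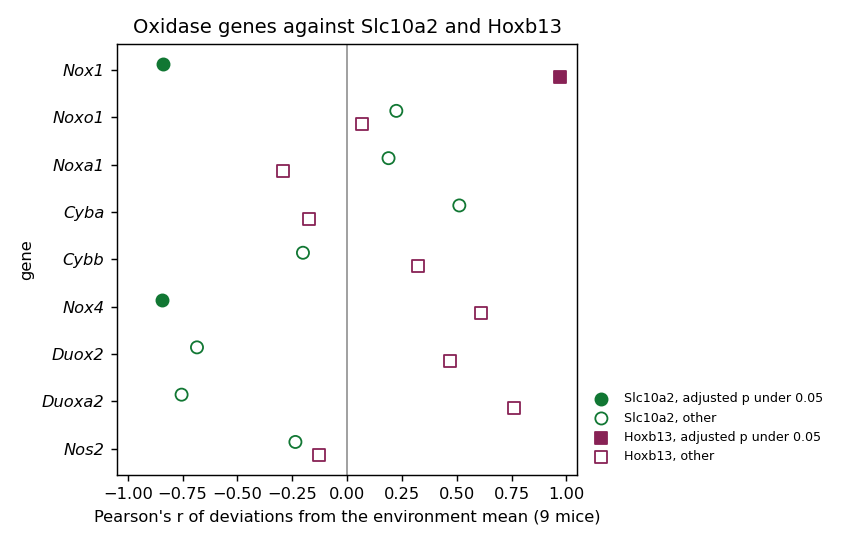
Pearson's r of each gene with Slc10a2 (green circles) and Hoxb13 (purple squares), over 9 mice as deviations from the mean of the environment. Filled symbols have an exact permutation p-value under 0.05 after adjustment over 26 pairs, namely Nox1 with both genes and Nox4 with Slc10a2, and the latter rests on counts at the floor.

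With position in the fit, the environment differences of Nox1 and Duoxa2 were smaller and kept their sign. Nox1 had a log2 fold change of 1.37 (± 0.37 SE) with Slc10a2 as a covariate and 1.44 (± 0.34 SE) with Hoxb13, beside 1.82 without them. For Duoxa2 these were 0.97 (± 0.25 SE) and 0.98 (± 0.25 SE), beside 1.19. Nos2 had 2.92 (± 0.83 SE) and 3.06 (± 0.83 SE), and Duox2 had 0.14 (± 0.14 SE) and 0.18 (± 0.15 SE). Position was not the only term that lowered Nox1. With the ending of the library name in the fit, Nox1 had 1.33 (± 0.44 SE). Leaving out the L3 libraries (WT_SE mice 1 and 3) gave 1.34 (± 0.46 SE). Duoxa2 had 1.25 (± 0.33 SE) and 1.27 (± 0.33 SE) in these fits. Cybb went from -0.18 to -0.57 (± 0.26 SE) and -0.55 (± 0.26 SE). The share of the difference that belongs to position or to the ending was not tested.

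**Figure D4:**
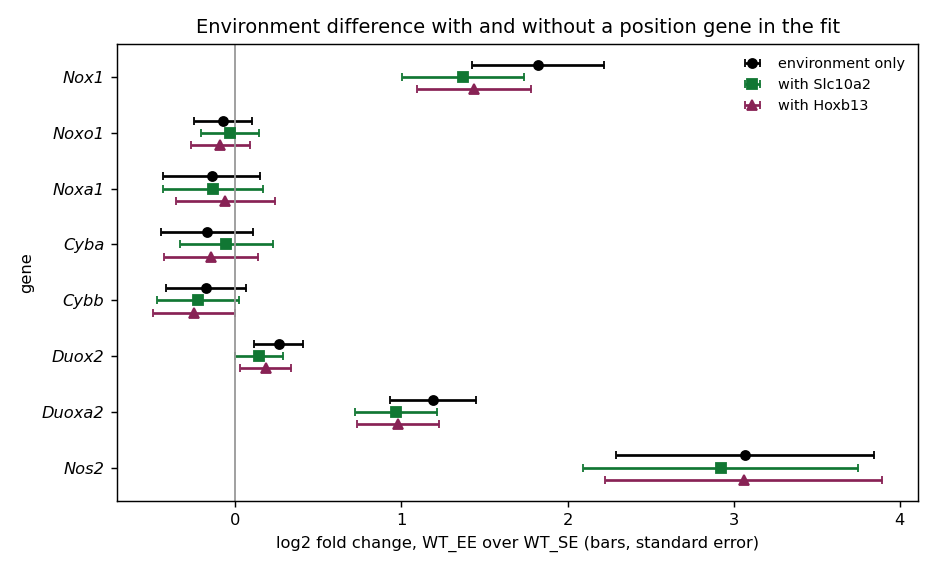
Log2 fold change of WT_EE over WT_SE (horizontal axis) with its standard error, for 8 of the 9 genes, with the environment alone in the fit (black circles) and with Slc10a2 (green squares) or Hoxb13 (purple triangles) added. Nox4 is left out because its counts lie at the floor. Nox1 goes from 1.82 to 1.37 and 1.44, and Nos2 stays near 3.

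Mice with like position values can be set side by side. WT_SE mice 2 and 3 and WT_EE mouse 1 had 0 counts of Hoxb13, and their Nox1 levels were 8.35, 6.76 and 23.7 CPM. Their Duoxa2 levels were 25.1, 33.8 and 66.9 CPM. At the other end, WT_SE mouse 5 and WT_EE mouse 2 had 153 and 157 CPM of Hoxb13, with 35.5 and 90.6 CPM of Nox1 and 57.4 and 105 CPM of Duoxa2. Each set holds 1 WT_EE mouse, and for Duoxa2 its order follows from the groups not overlapping, so nothing is read from these sets.

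No pair of genes whose products work together was correlated past the adjusted threshold within the environments. Nox1 had an r of 0.15 with Noxo1, -0.33 with Noxa1 and -0.16 with Cyba, and Cybb had an r of -0.09 with Cyba. Duox2 and Duoxa2, neighbours that are transcribed apart from each other, had an r of 0.51 (exact permutation p = 0.198, adjusted p = 0.468). Without WT_SE mouse 2 this r was 0.93 (exact permutation adjusted p = 0.0481), and it lay between 0.25 and 0.93 over the mice left out in turn. Duox2 and Nos2 had an r of 0.67 (exact permutation p = 0.0639, adjusted p = 0.277), which was 0.08 without WT_SE mouse 3 and WT_EE mouse 4. Nox1 and Nos2 had an r of -0.05 within the environments, and 0.71 pooled over them.

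Among 8493 genes with a mean of at least 10 counts, the log2 CPM of Nox1 over the 9 mice was most like that of Rras (r = 0.97), Itga9 (r = 0.96) and Hmox2 (r = 0.95). Nos2, at or under 3 counts in 5 of the 9 mice, was most like Tubb2a (r = 0.93), Shisal1 (r = 0.93) and Ube2j1 (r = 0.92), and its likeness is not interpreted. These r values include the difference between the environments and the composition of each piece, and are descriptions.

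Other oxidase genes gave no adjusted call. Of 10 listed, 8 had a count and 6 were tested, and 1 had an unadjusted p-value under 0.05. That gene, Rac2, a GTPase of blood cells that activates the phagocyte oxidase, was lower in WT_EE at 9.03 ± 3.48 CPM (SD, n = 5) than in WT_SE at 18.5 ± 11.4 CPM (SD, n = 4), with an edgeR adjusted p-value of 0.630. Ncf1 and Ncf4, which encode cytosolic partners of the phagocyte enzyme, had log2 fold changes of -0.45 (± 0.69 SE) and -0.94 (± 0.93 SE), and Ncf4 was at or under the floor in every mouse. Rac1, the widely used GTPase, had 256 ± 12.99 CPM (SD, n = 4) under the standard and 238 ± 13.7 CPM (SD, n = 5) under the enriched environment. Duox1 had 1 count in 1 mouse and none in the others.

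Of 17 genes of nitric oxide synthesis and its cofactors, all were tested and 3 had an unadjusted p-value under 0.05. Nos1, the neuronal synthase, had 42.7 ± 19.6 CPM (SD, n = 4) among WT_SE mice and 71.7 ± 21.5 CPM (SD, n = 5) among WT_EE mice (log2 fold change 0.67 ± 0.28 SE, edgeR adjusted p = 0.520). Ddah2, which breaks down inhibitors of the synthases, was also higher (log2 fold change 0.64 ± 0.28 SE). Qdpr, which regenerates the cofactor tetrahydrobiopterin, was lower (log2 fold change -0.39 ± 0.15 SE, edgeR adjusted p = 0.458). Nos3, the endothelial synthase, was at or under the floor in 8 of 9 mice.

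Among 21 genes that remove or carry peroxide, 19 had a count, 18 were tested and 3 had an unadjusted p-value under 0.05, all higher in WT_EE. These were Txn1, a thioredoxin, with a log2 fold change of 0.41 (± 0.16 SE), Gpx2, the epithelial glutathione peroxidase, with 0.38 (± 0.17 SE), and Aqp8, a water and peroxide channel, with 0.73 (± 0.35 SE). Txn1 and Gpx2 average between 80 and 160 counts, where CPM was lower in larger libraries, and what this does to their fold changes was not tested. Aqp8 had 81, 17, 2 and 110 counts in WT_SE and 68, 107, 68, 111 and 101 in WT_EE. Its 2 lowest mice, WT_SE 2 and 3, had no Hoxb13 and 103 and 110 counts of Slc10a2. WT_EE mouse 1, also without Hoxb13, and WT_EE mouse 3 had 107 and 117 counts of Slc10a2, and both had 68 counts of Aqp8. The log2 fold change of Aqp8 was 0.20 with Slc10a2 in the fit and 1.37 without WT_SE mouse 5.

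Of 20 genes of epithelial inflammation, 15 had a count and 11 were tested, and they went both ways. Zc3h12a, which encodes the ribonuclease regnase-1, had 25.2 ± 13.7 CPM (SD, n = 4) among WT_SE mice and 61.6 ± 28.1 CPM (SD, n = 5) among WT_EE mice (log2 fold change 1.19 ± 0.34 SE, edgeR adjusted p = 0.203). Nfkbiz, an inducible regulator of NF-kB targets, had a log2 fold change of 0.59 (± 0.21 SE). Reg3g, an antibacterial lectin, had -1.32 (± 0.50 SE) and the cytokine gene Il1b -1.40 (± 0.68 SE), with 3 or fewer counts of Il1b in 5 of 9 mice. The Reg3g value moved with single mice and with position, being -0.53 without WT_SE mouse 2, -2.37 without WT_EE mouse 1, -0.60 with Slc10a2 in the fit and -0.27 with Hoxb13 in the fit. Lcn2, a marker of inflamed epithelium, had at most 1 count in any mouse.

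Over these 4 lists, 12 genes had an unadjusted p-value under 0.05 and 0 an adjusted one in edgeR, and 7.65% of all genes passed the former. The 12 were 1 of 6 other oxidase genes tested, 3 of 17 nitric oxide genes, 3 of 18 peroxide genes and 5 of 11 inflammation genes. The median log2 fold change was -0.28 for the other oxidase genes, -0.10 for the nitric oxide genes, -0.06 for the peroxide genes and -0.20 for the inflammation genes, and 0.01 over all genes. With each mouse left out in turn, Nfkbiz and Zc3h12a kept an unadjusted p-value under 0.05. Rac2 lost it without WT_SE mouse 1, 2 or 5 or WT_EE mouse 4 or 5, Nos1 without WT_SE mouse 3 or WT_EE mouse 4, Ddah2 without WT_SE mouse 3 or 5 or WT_EE mouse 3 or 5, and Qdpr without WT_SE mouse 3. Txn1 lost it without WT_EE mouse 5, Gpx2 without WT_SE mouse 1 or WT_EE mouse 2 or 4, Aqp8 without WT_SE mouse 2 or 3 or WT_EE mouse 2 or 4, Reg3g without WT_SE mouse 2 or 3, and Il1b without any mouse other than WT_SE mouse 3 or WT_EE mouse 4 or 5. In all, 4 genes of these lists were past the unadjusted threshold when the ending of the library name entered the fit.

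Markers of the cells that could carry these genes were summed in each mouse. For 10 epithelial markers, all with a count, the sum was 2721 to 3406 CPM in WT_SE and 2774 to 3689 CPM in WT_EE. Of 10 neutrophil markers 3 had a count, and the sum was 0 to 24.6 CPM in WT_SE and 2.16 to 122 CPM in WT_EE, carried by Ly6g, which had 35 counts in WT_EE mouse 2 and a log2 fold change of 1.73 (± 0.80 SE). Csf3r and Retnlg, the other 2, had at most 1 count in a mouse. The remaining 7 (S100a8, S100a9, Mpo, Elane, Cxcr2, Ngp and Camp) have no entry in the deposited counts of any of these mice. For 6 smooth muscle markers the sum was 1540 to 1974 CPM in WT_SE and 1508 to 2841 CPM in WT_EE. It was highest in WT_EE mice 2 and 4, which were also the highest in Nox1. The epithelial sum (3590 and 3689 CPM) and the fibroblast sum (1408 and 1271 CPM) were highest in these mice too. Their libraries are the smallest of WT_EE (295535 and 336967 counts). Genes averaging 80 to 160 counts, such as Des and Acta2, had lower CPM in larger libraries, and its part in these sums was not tested. Of the 6 smooth muscle markers, Des (log2 fold change 0.38 ± 0.17 SE) and Acta2 (log2 fold change 0.36 ± 0.18 SE) were higher in WT_EE at an unadjusted p-value under 0.05. For 6 fat markers the sum was 61.3 to 830 CPM in WT_SE and 99.5 to 426 CPM in WT_EE, with Plin1 lower (log2 fold change -1.80 ± 0.75 SE). For 6 fibroblast markers it was 958 to 1143 CPM and 916 to 1408 CPM. Ly6g, Des, Acta2 and Plin1 were the markers past the unadjusted threshold, none of them after adjustment in edgeR. The part of these cells in the values of the oxidase genes was not tested.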

How the data were processed

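The 9 colon libraries (4 WT_SE, 5 WT_EE) were made by the authors with a 3′ messenger RNA kit. The submitters' processing notes name fastp 0.20.0, STAR 2.7.0f, featureCounts 1.6.0, UMI-tools and GRCm38.p6, and the methods of the study give another STAR version. The authors deposited whole-number counts of molecules per gene, without normalization. From these counts, the 17441 genes that reached 4 CPM in 1 library or more were fitted in R 4.3.3 with edgeR 4.0.16 (TMM factors, quasi-likelihood F test, environment as the only term, Benjamini-Hochberg adjustment over all genes). The biological coefficient of variation was 15.1%. Differences between counts at or under 3 are not interpreted. Position relations used log2 CPM with a prior count of 2, minus the environment mean, in 2880 exact permutations within environments, and 26 pairs were adjusted together. The slopes in edgeR were added after values had been seen. Symbols were paired for 22248 of 22262 identifiers from GENCODE M21, and start regions were taken from RefSeq. The fits were tested on simulated counts.

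The members, lists, tests and alternatives were chosen with earlier results of these data known. Named genes are the 9 members, Slc10a2 and Hoxb13, in each list up to 3 genes per direction with the smallest unadjusted p-value under 0.05, and the 3 genes most like Nox1 or Nos2. Rac1, Ncf1, Ncf4, Duox1, Nos3, Lcn2, Hoxa11, Hoxd11, Des, Acta2, Plin1 and overlapping genes were named after their values were seen. Values of some listed genes are not reported here. Alternatives used RLE and upper-quartile scaling, other filters, DESeq2 1.42.0, limma 3.58.1 (voom), a replicate block by mouse number, the ending of the library name, position covariates and each mouse left out. DESeq2 and edgeR were run on the deposited counts.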

Additional observations from a re-analysis of the deposited data

Results flagged for a closer look

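In 4 cases 1 mouse stood apart from the others of its group by Dixon's ratio. Nox1 in WT_SE mouse 5 was at 35.5 CPM (13 counts), where the other WT_SE mice had 6.76 to 10.4 CPM. Hoxb13 in the same mouse was at 153 CPM (56 counts), where the others had 0 to 10.4 CPM. Noxo1 in WT_SE mouse 1 was at 88.7 CPM (34 counts), where the others had 166 to 178 CPM. WT_EE mouse 4 had 27.8 CPM of Nos2 (9 counts), where the others had 10.5 to 12.95 CPM. The ratio was taken for 46 groups of a gene and an environment, for which chance at 1 in 20 would give 2.3 cases.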

How the results depend on the processing

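The number of genes with an unadjusted p-value under 0.05 between the environments was 1334 (751 higher and 583 lower in WT_EE). It was 804 with edgeR's own filter, 643 with DESeq2, 688 with the ending of the library name in the fit and 680 without the L3 libraries, and 899 (without WT_SE mouse 3) to 1581 (without WT_SE mouse 5) with 1 mouse left out. With upper-quartile scaling the split was 615 higher and 753 lower. After adjustment 7 genes passed in edgeR. This count was 143 with no filter, 2 with Slc10a2 and 23 with Hoxb13 as a covariate, and 0 to 48 with 1 mouse left out, lowest without WT_SE mouse 3 and highest without WT_EE mouse 1. It was 0 with 4 CPM required in every library, with edgeR's filter, DESeq2, limma-voom, the library-name ending or without the L3 libraries, where the counts at an unadjusted p-value under 0.05 were 968, 804, 643, 1357, 688 and 680. The cause of these shifts was not tested.

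Mice of the 2 environments share numbers but are different animals, and their deviations did not pair (r from -0.02 to 0.08 for the 4 same-numbered pairs, and no WT_SE mouse correlated best with its own number). With the replicate block, 1170 genes passed at the unadjusted threshold and 70 after adjustment, among them 2 members (Nox1 and Duoxa2).

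Over the 4 companion lists, 12 genes passed the unadjusted threshold. This was 7 with edgeR's filter, 6 with DESeq2, 4 with the library-name ending and 4 without the L3 libraries, and 7 (without WT_SE mouse 3 or WT_EE mouse 4) to 13 with 1 mouse left out. The number of correlated pairs, 3, was 1 by Spearman's rho, 0 when pooled and 0 to 3 with 1 mouse left out, 0 without WT_SE mouse 1 or 5 or WT_EE mouse 2, 4 or 5. The number of members with a slope on Slc10a2, 1, was 0 with edgeR's filter and 0 to 1 with 1 mouse left out, and on Hoxb13 it was also 0 to 1. Of 185 member fold changes under an alternative, 180 moved by less than the SD within environments. The fitted Nos2 change was 2.56 to 3.52, and Nox4 was -0.82 with Slc10a2 as a covariate.

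Depth limits Nos2 and Nox4 most, with 5 and 8 of 9 mice at or under 3 counts.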
